A study of Mus musculus with 6 samples.

Results

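The secreted antagonists of Wnt signalling were followed in cultured hepatic stellate cells of mice, which lie along the liver's sinusoids, store retinoids and turn into myofibroblasts when activated. The 10 genes were fixed by name as Sfrp1, Sfrp2, Sfrp4, Frzb, Dkk1, Dkk2, Dkk3, Wif1, Apcdd1 and Notum, out of 22180 genes that the Affymetrix array measured with a probe set of a single gene symbol. Each of the 6 groups was 1 array, hybridised with RNA of cells pooled from 5 mice. PRI-724 cells, from old or young mice, had been activated by more than 20 days on uncoated plastic and given 10 µM C-82, the active form of PRI-724, which blocks the binding of beta-catenin to its coactivator CBP. Vehicle cells, old or young, were activated in the same way without the compound. Quiescent cells, old or young, came from normal liver and had been plated for 12 h, without treatment. Old mice were 6 to 9 months of age and young mice 8 to 11 weeks, and the labels give neither strain nor sex nor the length of exposure to C-82.

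Wnt proteins carry a lipid and signal through Frizzled receptors, with LRP5 and LRP6 as co-receptors when the signal goes through beta-catenin. The antagonists work outside the cell. The Sfrp proteins and Frzb (also called sFRP3) hold a cysteine-rich domain like that of Frizzled and bind Wnts, as does Wif1 through a domain of its own. Dkk1 and Dkk2 bind the LRP co-receptors instead, and Dkk3 is a divergent relative that is not a clear Wnt antagonist. Notum is an esterase that removes the lipid from Wnts. Apcdd1 is a glycoprotein of the cell surface that binds Wnts and LRP5, so it belongs to the set by action and is not freely secreted. Dkk1, Apcdd1 and Notum are known as targets of beta-catenin in several tissues, which makes them feedback inhibitors.

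The promoters of Frzb and Dkk1 are shown because these genes had the largest PRI-724 minus vehicle differences of the set, in opposite directions. Each is the 250 bases before the annotated start site on the coding strand of the RefSeq annotation of GRCm38.p6, at chr2:80447397-80447646 (minus strand) for Frzb and chr19:30549497-30549746 (minus strand) for Dkk1. Capitals mark a match to the TCF/LEF motif, the site bound by the partners of beta-catenin, searched as CTTTGAT or CTTTGAA on both strands.
Frzb: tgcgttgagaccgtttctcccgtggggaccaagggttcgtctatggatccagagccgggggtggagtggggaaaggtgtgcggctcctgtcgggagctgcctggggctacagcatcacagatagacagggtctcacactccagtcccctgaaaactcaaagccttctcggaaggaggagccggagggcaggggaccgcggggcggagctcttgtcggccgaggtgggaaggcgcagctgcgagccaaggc
Dkk1: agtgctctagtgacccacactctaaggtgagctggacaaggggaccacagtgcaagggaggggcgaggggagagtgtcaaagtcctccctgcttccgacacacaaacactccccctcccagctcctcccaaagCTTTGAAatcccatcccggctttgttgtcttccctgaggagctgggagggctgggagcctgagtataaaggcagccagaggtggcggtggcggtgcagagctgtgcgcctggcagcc

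The Dkk1 promoter held 1 match, 117 to 111 bases before the start site. The Frzb promoter held no such letters in its window of 300 bases (250 before and 50 after the start). Windows were at hand for 5 of the 10 genes, and those of Sfrp2, Dkk2 and Wif1 held no match either. Of all 32851 windows of that length, 8.65% held a match. The windows of the 5 genes were richer in G and C than the median window, at 57.7% (Dkk2) to 66.0% (Sfrp2) against 52.7%. They held 9 CpG dinucleotides in Dkk1, 11 in Dkk2, 20 in Frzb, 22 in Sfrp2 and 25 in Wif1, against a median of 7.

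A few facts of the arrays bear on what follows. The young PRI-724 array had the narrowest spread of signal, with an interquartile range of 1.71 log2 units over tested genes against 2.11 to 2.43 on the other 5. Stellate cell genes such as Dcn and Reln were bright on every array (11.80 to 12.53 and 9.24 to 10.06 on the log2 scale), and 11 to 14 of the 14 measured stellate cell markers were above the background yardstick described next on each array. On the young PRI-724 array Lrat (5.57), Colec11 (5.59) and Ngfr (5.93) were below that yardstick of 5.97, and Colec11 was above it on 4 of the 6 arrays. Markers of other cell types gave signal as well: the endothelial cadherin gene Cdh5 read 8.30 to 12.73 and albumin (Alb) 7.02 to 11.95. Of 5 cholangiocyte markers 3 to 4 were above the yardstick on every array, with Krt19 above it on 4 arrays, while Epcam was below it on all 6. Acta2, the smooth muscle actin of activated stellate cells, had 10.49 in old and 9.73 in young vehicle cells, against 6.97 in old and 5.94 in young quiescent cells (difference 3.66 ± 0.41, limma, adjusted p = 0.00408). Col1a1, a chain of type I collagen, had 10.16 in old and 8.85 in young vehicle cells, against 6.92 in old and 6.28 in young quiescent cells (difference 2.91 ± 0.48, adjusted p = 0.0106).

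Most of the antagonists lay at or near background. As a yardstick for background, each value was set beside the 95th percentile of 1394 olfactory and vomeronasal receptor genes on the same array, which ran from 5.07 on the young vehicle to 5.97 on the young PRI-724 array. Frzb and Dkk3 were above it on all 6 arrays and Sfrp1 on 5. Apcdd1 was above it on 3 arrays, Sfrp2, Dkk2 and Wif1 on 1 each, and Sfrp4, Dkk1 and Notum on none. All 10 genes passed the filter on dim genes (a mean log2 signal of at least 4.70) and were tested, Sfrp2 only just with a mean of 4.74.

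**Figure D1:**
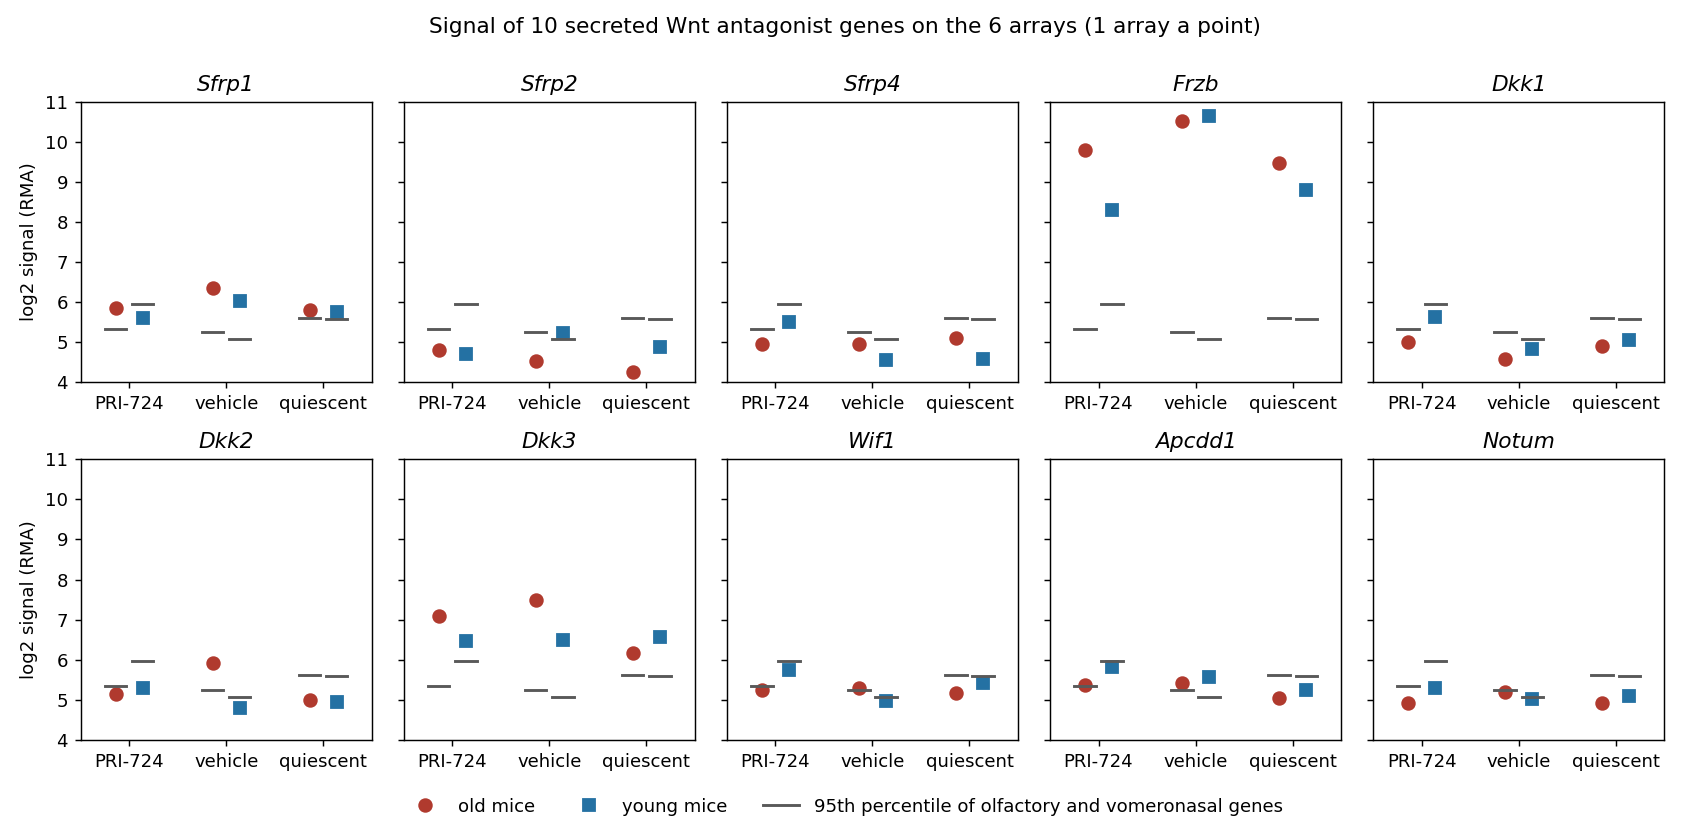
The log2 signal (y axis) of each of the 10 genes is plotted for PRI-724, vehicle and quiescent cells (x axis), 1 array a point, with old mice as circles and young mice as squares. Grey bars give the 95th percentile of the olfactory and vomeronasal genes on the same array. Frzb lies far above the bars on all 6 arrays, and Sfrp4, Dkk1 and Notum lie below them on all 6.

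Frzb was the only member that passed the threshold with culture activation in the main test. Its log2 signal was 10.52 in old and 10.64 in young vehicle cells, against 9.46 in old and 8.80 in young quiescent cells. The vehicle values lay within 0.11 of each other, while the quiescent values differed by 0.66. Frzb rose by 1.45 ± 0.34 log2 units, or 2.73-fold (limma, 2 pairs, 95% interval 0.68 to 2.22, adjusted p = 0.0399). Throughout, ± is limma's moderated SE, which draws on the spread of all tested genes and is not the SE of the pairs alone. The rise was 2.09-fold in the old pair and 3.56-fold in the young pair.

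That call was close to the threshold. It held in 7 of 15 alternative settings, with adjusted p from 0.000474 to 0.519, and it was lost without the young vehicle array (0.85, adjusted p = 0.519). It was also lost when either PRI-724 array was left out, the young or the old one (adjusted p = 0.0580 each). The 632 tested genes within 0.5 log2 units of Frzb's mean signal had median vehicle minus quiescent differences of 0.11 in the old and 0.17 in the young pair.

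In the whole set, 1 of 10 genes rose with activation and 0 fell (limma, adjusted p under 0.05), and the same 1 gene had an unadjusted p under 0.05. Of all 15526 tested genes, 4.61% rose, 1.26% fell and 22.4% had an unadjusted p under 0.05. A count of 1 in 10 does not set these genes apart from that background. The median difference of the 10 genes was 0.33, against 0.04 over all tested genes, but the ages did not share it. It was 0.32 in the old pair (0.05 over all tested genes) and -0.04 in the young pair (0.04 over all tested genes).

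Sfrp1 had a smaller difference of the same sign in both ages. It read 6.35 in old and 6.03 in young vehicle cells, against 5.81 in old and 5.75 in young quiescent cells. The difference of 0.41 ± 0.25 did not pass (limma, adjusted p = 0.370, 95% interval -0.14 to 0.97). Dkk3 read 7.50 in old and 6.49 in young vehicle cells, against 6.16 in old and 6.56 in young quiescent cells. Its difference was thus 1.34 (2.53-fold) in the old pair and -0.07 in the young pair, and the mean of 0.64 ± 0.35 did not pass (adjusted p = 0.322). Whether the response of Dkk3 differs between ages could not be tested with 1 array a group.

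The remaining 7 genes, of which none was above the background yardstick on more than 3 arrays, had differences from -0.28 (Dkk1) to 0.40 (Dkk2), with adjusted p of at least 0.448. Apcdd1 was at 5.42 in old and 5.58 in young vehicle cells, against 5.05 in old and 5.26 in young quiescent cells, which makes differences of 0.37 in the old and 0.32 in the young pair. Dkk2 reached 5.93 in old vehicle cells and stayed between 4.80 and 5.29 on the other 5 arrays. For Sfrp2, which has 2 probe sets, the second and dimmer one differed by 0.22, next to 0.31 for the brighter one. Wif1 read 5.30 in old and 4.97 in young vehicle cells, against 5.16 in old and 5.42 in young quiescent cells, and Notum had the smallest range of all 10 genes over the 6 arrays, 0.38.

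**Figure D2:**
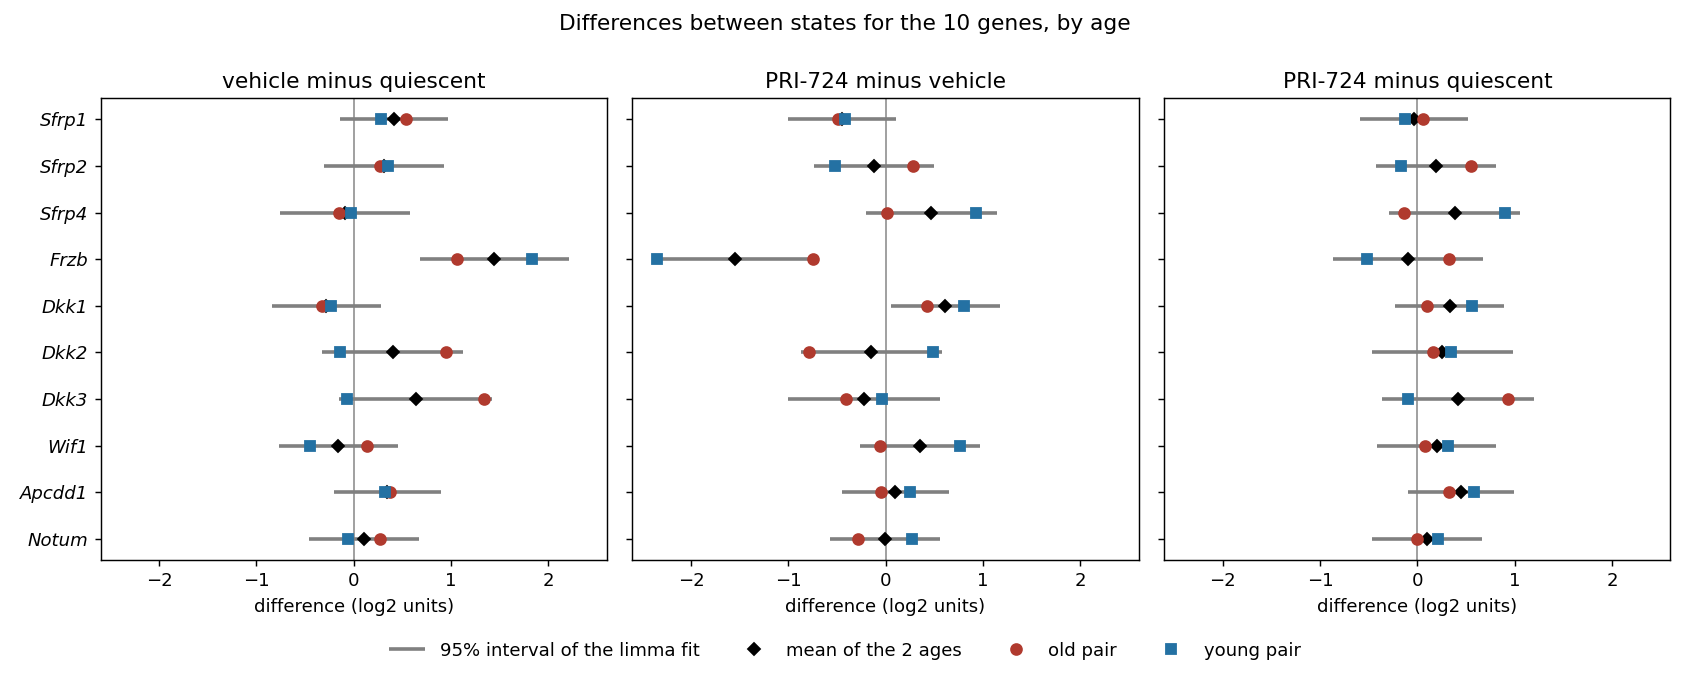
The difference in log2 signal (x axis) is plotted for each of the 10 genes (y axis) in 3 comparisons, as the mean of the 2 ages (diamonds) with the 95% interval of the limma fit (grey lines), and for the old pair (circles) and the young pair (squares). Frzb has the largest mean difference of the set in the first and second panels, 1.45 and -1.55, and lies near 0 in the third.

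After PRI-724, Frzb was lower than in vehicle cells in both ages, but by very different amounts, and the test missed its threshold. Its log2 signal was 9.78 in old and 8.29 in young PRI-724 cells, against 10.52 in old and 10.64 in young vehicle cells. The difference was -1.55 ± 0.34 log2 units (limma, moderated SE, 2 pairs, 95% interval -2.31 to -0.78, adjusted p = 0.0537). Both pair values, -0.74 (old) and -2.35 (young), lay outside that interval. Frzb was 1.67-fold lower in the old pair and 5.10-fold lower in the young pair, and a test of that difference between ages was not possible.

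The young pair holds the array with the narrow signal range, whose part in the result was not tested. For the 632 genes of similar brightness to Frzb, the median of the same difference was 0.04 in the old and -0.30 in the young pair. After quantile normalization of the tested genes, Frzb stood at -0.75 in the old and -1.89 in the young pair, with a mean of -1.32 and an adjusted p of 0.139. Frzb passed in 4 of 15 settings: without the young, the old or both quiescent arrays, and without the old vehicle array (-2.14). Leaving out quiescent arrays kept the difference at -1.55, so only the estimated spread changed there. With both left out (limma, adjusted p = 1.75e-05) the pairs still stood at -0.74 (old) and -2.35 (young). Leaving out the young PRI-724 array gave -0.93 (adjusted p = 0.753), and the mean was -0.95 without the young vehicle array (adjusted p = 0.492).

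Of the 10 genes 0 rose and 0 fell after PRI-724 (limma), and 2 had an unadjusted p under 0.05, Frzb and Dkk1. Among all tested genes 0.271% rose, 1.93% fell and 15.5% had an unadjusted p under 0.05. The median of the 10 genes was -0.06, against -0.05 over all tested genes. By age it was -0.17 in the old pair (-0.01 over all tested genes) and 0.26 in the young pair (-0.14 over all tested genes). Most of the 10 genes lay at or near background, and the background yardstick differed in the young pair as well. It was 5.97 on the young PRI-724 array against 5.07 on the young vehicle array. The part of that shift in the young median was not tested.

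Dkk1 had a difference of the opposite sign. It read 5.01 in old and 5.62 in young PRI-724 cells, against 4.58 in old and 4.82 in young vehicle cells. The PRI-724 values were the higher ones in both ages, yet all 6 values of Dkk1 lay below the background yardstick of their arrays. The yardstick itself was higher after PRI-724, at 5.97 against 5.07 in the young pair and 5.34 against 5.26 in the old pair. The part of that shift in the difference of Dkk1 was not tested. Its difference was 0.61 ± 0.25 (1.53-fold, 95% interval 0.05 to 1.17, adjusted p = 0.279). The promoter with the TCF/LEF letters printed above is that of Dkk1, but 8.65% of all windows held such a match. Any link between the match and this difference was not tested. Axin2, a target of beta-catenin in most cells and an inhibitor of it, read 5.69 in old and 6.55 in young PRI-724 cells, against 5.41 in old and 5.73 in young vehicle cells, a difference of 0.55 ± 0.29 (adjusted p = 0.402). Its second probe set differed by only 0.06.

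Sfrp1 read 5.86 in old and 5.61 in young PRI-724 cells, against 6.35 in old and 6.03 in young vehicle cells. The difference of -0.45 ± 0.25 did not pass (limma, adjusted p = 0.425). Dkk3 stood at 7.09 in old and 6.46 in young PRI-724 cells, against 7.50 and 6.49 in old and young vehicle cells. Its differences were -0.41 in the old and -0.03 in the young pair, with a mean of -0.22 ± 0.35. The 3426 tested genes within 0.5 log2 units of Dkk3's mean signal had medians of -0.03 in the old and -0.42 in the young pair. Their median for the mean of the pairs was -0.21. Sfrp4 had 4.96 in old and 5.50 in young PRI-724 cells, against 4.95 in old and 4.56 in young vehicle cells. Its difference of 0.93 was in the young pair alone, where the background yardstick was also highest. The other 5 genes had mean differences between -0.15 (Dkk2) and 0.35 (Wif1), and each had opposite signs in the old and the young pair. The probe sets of Sfrp2 disagreed, at -0.12 for the brighter and 0.16 for the dimmer one, and those of Notum stood at -0.01 and -0.04.

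Set against quiescent cells, PRI-724 cells had no detectable difference in Frzb, and the interval includes changes in either direction. The values were 9.78 in old and 8.29 in young PRI-724 cells, against 9.46 in old and 8.80 in young quiescent cells, so the groups overlapped. The difference was -0.10 ± 0.34 (95% interval -0.87 to 0.67, adjusted p = 0.953), made of 0.32 in the old and -0.52 in the young pair. The vehicle arrays serve in both comparisons above with opposite sign, and the quiescent and PRI-724 arrays likewise serve in 2 comparisons each, so the 3 differences are not independent of each other.

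None of the 10 genes passed in this comparison (limma, 0 rose and 0 fell), and 0 had an unadjusted p under 0.05, where 1.28% of all tested genes rose, 2.43% fell and 16.3% had an unadjusted p under 0.05. The largest difference was that of Apcdd1, at 5.37 in old and 5.83 in young PRI-724 cells, against 5.05 in old and 5.26 in young quiescent cells. It amounted to 0.45 ± 0.24 (adjusted p = 0.423). Of these Apcdd1 values only that of old PRI-724 cells was above the background yardstick of its array, which was 5.34. The yardstick was also higher on the young PRI-724 than on the young quiescent array, at 5.97 against 5.59. The part of that shift in the difference of Apcdd1 was not tested. Dkk3 had 7.09 in old PRI-724 cells against 6.16 in old quiescent cells, a difference of 0.93, and -0.10 in the young pair.

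No member passed the test for age. Over the 3 states 0 of 10 genes were higher and 0 lower in old than in young cells (limma), next to 0.264% and 0.251% of all tested genes. One member, Frzb, had an unadjusted p under 0.05, as did 10.4% of all tested genes. Frzb stood at 0.68 ± 0.28 (limma, moderated SE, 3 pairs, adjusted p = 0.436), from old minus young differences of 1.496 in PRI-724, -0.11 in vehicle and 0.66 in quiescent cells. The difference was 1.08 without the young vehicle array (adjusted p = 0.0460) and also 1.08 without the old vehicle array (adjusted p = 0.0517). It was 0.27 when the young or the old PRI-724 array was left out (adjusted p = 0.715 and adjusted p = 0.717). Markers of other cells differed with age as well. Of 9 tested hepatocyte markers 4 were higher in old than in young cells (Serpina1c, Fgb, Ahsg and Alb) and all 9 had an unadjusted p under 0.05, with a median of 1.94. Of 10 myofibroblast markers 1 was higher (Tagln) and 6 had an unadjusted p under 0.05, with a median of 0.92. Their part in the age difference of Frzb was not tested.

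Markers of other cell types also differed between the states, and bulk arrays cannot tell fewer cells of a type from less RNA per cell. The 10 myofibroblast markers averaged 8.53 in old and 6.61 in young PRI-724 cells, 8.98 in old and 8.54 in young vehicle cells, and 6.89 in old and 6.33 in young quiescent cells. The young PRI-724 value lay between the quiescent ones, and the old PRI-724 value was close to that of young vehicle cells. With activation 5 of the 10 rose and 0 fell, and after PRI-724 1 fell against vehicle cells, Myl9, a myosin light chain, by 2.41 ± 0.36 (adjusted p = 0.00969). The 14 sinusoidal endothelial markers averaged 6.91 in old and 5.97 in young PRI-724 cells, 9.06 in old and 9.33 in young vehicle cells, and 8.26 in old and 9.49 in young quiescent cells. The 14 stellate cell markers averaged 8.12 in old and 7.74 in young PRI-724 cells, 8.39 in old and 8.44 in young vehicle cells, and 7.90 in old and 8.02 in young quiescent cells, below the endothelial list in vehicle and quiescent cells and above it in PRI-724 cells. The 14 macrophage markers averaged 6.05 in old and 5.87 in young PRI-724 cells, 8.30 in old and 8.44 in young vehicle cells, and 8.89 in old and 8.08 in young quiescent cells.

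With PRI-724, 13 of 14 tested endothelial markers and 10 of 13 tested macrophage markers fell (limma, adjusted p under 0.05), with medians of -2.48 and -2.47. The defining genes of neither type all reached background. Of the endothelial genes, Cdh5 still read 10.30 in old and 8.30 in young PRI-724 cells. Stab2 read 6.45 in old and 5.04 in young ones, below the background yardstick in the young only. Of the Kupffer cell genes, Vsig4, a receptor, read 4.35 in old and 3.60 in young PRI-724 cells, below the yardstick. Clec4f read 6.04 in old and 6.80 in young ones, above it. Of the 14 macrophage markers, 8 in old and 5 in young PRI-724 cells were above it. Of the 14 endothelial markers, 13 in old and 7 in young ones were. Of 14 tested stellate cell markers 1 fell and 0 rose, with a median of -0.46. It was Lrat, which esterifies retinol for storage, and it fell by 1.69 ± 0.31 (limma, adjusted p = 0.0242). Lrat read 6.92 in old and 5.57 in young PRI-724 cells and 8.155 in old and 7.71 in young vehicle cells. In quiescent cells it read 6.87 in old and 6.32 in young ones, below the vehicle values. With activation 5 of the 14 stellate cell markers rose and 2 fell. In PRI-724 against quiescent cells 1 of them was higher and 2 were lower. Hepatocyte markers ranged from a mean of 5.12 on the young vehicle to 9.45 on the old quiescent array, and 3 of 9 tested ones fell with activation. The 6 mesothelial markers averaged 7.03 in old and 6.79 in young PRI-724 cells, 6.96 in old and 7.11 in young vehicle cells, and 5.63 in old and 5.79 in young quiescent cells. With activation 3 of them rose and 0 fell (Upk1b, Lrrn4 and Gpm6a), 5 had an unadjusted p under 0.05, and the median was 1.20, at 1.39 in the old and 1.22 in the young pair. In PRI-724 against quiescent cells 2 of the 6 were higher (Upk1b and Lrrn4) and 0 lower, and against vehicle cells 0 rose and 0 fell, with 1 at an unadjusted p under 0.05. The part of any of these cells in the differences of Frzb was not tested.

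**Figure D3:**
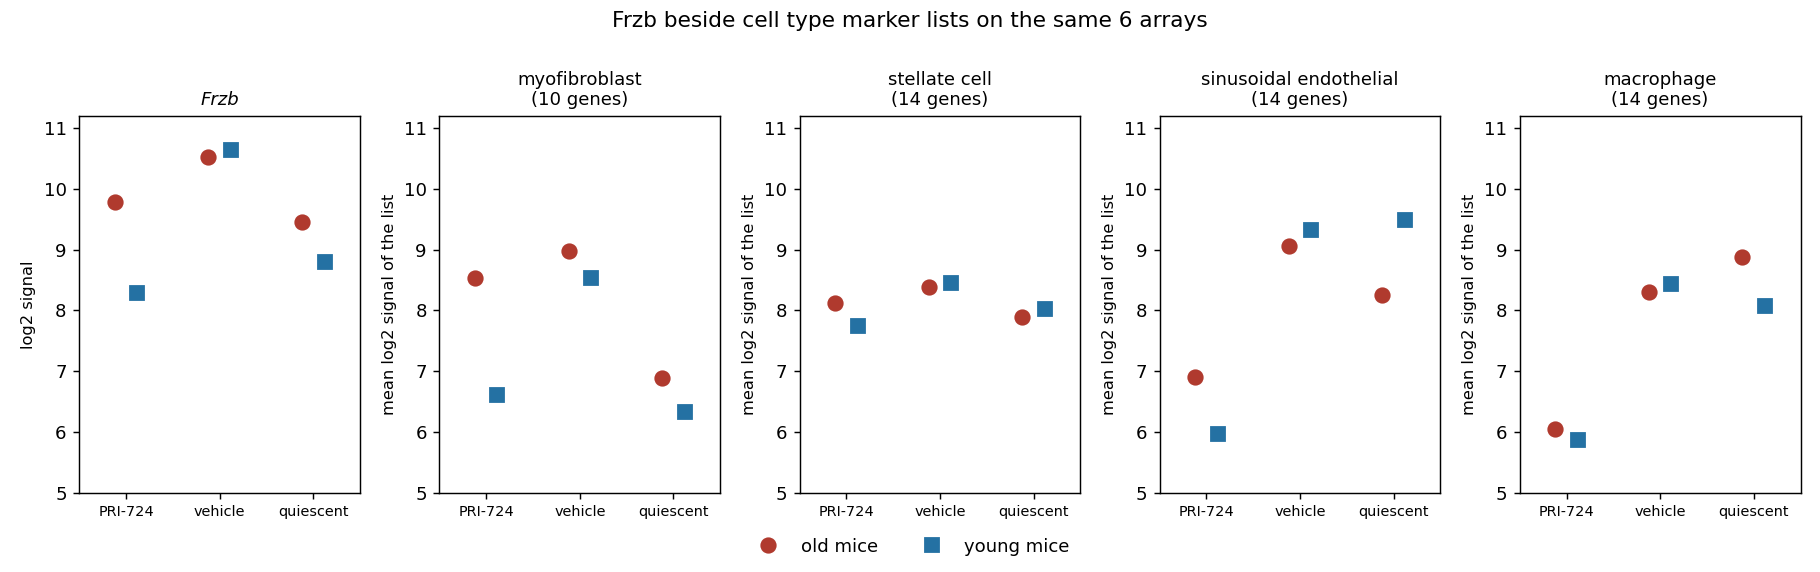
The log2 signal of Frzb (left) and the mean log2 signal of 4 marker lists (y axes) are plotted for PRI-724, vehicle and quiescent cells, 1 array a point, with old mice as circles and young mice as squares. Within each age Frzb, the myofibroblast list and the stellate cell list are highest in vehicle cells. The endothelial list is highest in vehicle cells in old mice only, and the macrophage list in young mice only. Both of these lists are lowest in PRI-724 cells, at 5.87 to 6.91.

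By shape, the genes closest to Frzb over the 6 arrays were St3gal5, the synthase of the ganglioside GM3, Abhd6, a lipid hydrolase, and Mrpl42 of the mitochondrial ribosome. Their values, centred on each gene's mean, differed from those of Frzb by a root mean square of 0.15, 0.16 and 0.16 log2 units. St3gal5 read 7.59 in old and 6.16 in young PRI-724 cells, 8.32 in old and 8.63 in young vehicle cells, and 7.39 in old and 7.05 in young quiescent cells. The ranking ran over 6 arrays and all tested genes with a known symbol, and no test was made of it.

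The rest of the Wnt pathway was set beside the antagonists. Of all tested genes 4.61% rose and 1.26% fell with activation. Against vehicle cells 0.271% rose and 1.93% fell with PRI-724, and against quiescent cells 1.28% were higher and 2.43% lower. Among the 8 other secreted inhibitors, 7 were tested and 0 rose or fell in any of the 3 comparisons of states, with 1, 1 and 0 at an unadjusted p under 0.05. Sfrp5, a close relative of Sfrp1, read 4.83 in old and 4.99 in young PRI-724 cells, 5.25 in old and 4.61 in young vehicle cells, and 5.14 in old and 5.32 in young quiescent cells, all below the background yardstick. Of 19 inhibitors at the membrane or inside the cell, 1 rose with activation and 1 fell after PRI-724, and it was the same gene. Shisa2, whose relatives in Xenopus hold Frizzled receptors back in the endoplasmic reticulum, rose by 2.40 ± 0.36 in vehicle over quiescent cells (adjusted p = 0.00825). It fell by 2.19 ± 0.36 in PRI-724 against vehicle cells (adjusted p = 0.0165), with differences of -1.44 in the old and -2.94 in the young pair. Both differences use the same vehicle arrays.

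Of 21 tested Wnt ligands and secretion genes, 2 rose with activation and 0 fell. These were Wls, the carrier that brings Wnts to the cell surface, by 1.72 ± 0.28 (adjusted p = 0.0102), and the ligand Wnt5a by 1.19 ± 0.28 (adjusted p = 0.0394). In PRI-724 against quiescent cells Wls was higher by 1.29 ± 0.28 (adjusted p = 0.0337) and the ligand Wnt2 fell by 2.32 ± 0.44 (adjusted p = 0.0196). Of 15 tested receptors 3 rose with activation and 0 fell, namely Fzd6 by 1.30 ± 0.25 (adjusted p = 0.0200), Ryk by 1.21 ± 0.25 (adjusted p = 0.0242) and Fzd1 by 1.06 ± 0.27 (adjusted p = 0.0494). Fzd4 fell by 2.13 ± 0.47 in PRI-724 against quiescent cells (limma, adjusted p = 0.0360). In that comparison 9 of 14 tested endothelial markers and 11 of 13 tested macrophage markers were also lower, with medians of -2.37 and -2.53. The part of these cells in the differences of Wnt2 and Fzd4 was not tested. Against vehicle cells, 0 of the ligand, secretion and receptor genes rose or fell with PRI-724.

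For the targets of beta-catenin, 14 of 20 listed genes were tested. With activation Bmp4, a growth factor, rose by 2.16 ± 0.30 (adjusted p = 0.00643) and Myc fell by 1.13 ± 0.24 (adjusted p = 0.0256). After PRI-724 0 rose and 0 fell against vehicle cells (limma). Of the 14 tested, 4 had an unadjusted p under 0.05, as did 15.5% of all tested genes. The list median was 0.19, against -0.05 over all tested genes. It was -0.06 in the old pair (-0.01 over all tested genes) and 0.46 in the young pair (-0.14 over all tested genes). The background yardstick was also higher on the young PRI-724 than on the young vehicle array, at 5.97 against 5.07. The part of that shift in the young median was not tested.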

How the data were processed

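Per the submitters' processing notes, RMA in Affymetrix Expression Console gave the deposited values, with no version stated. The authors deposited log2 signals for 41345 probe sets, of which 23521 have 1 gene symbol in the platform table, 1814 several and 16010 none. Each gene took its probe set with the highest mean over 6 arrays (22180 genes, and 2 of the 10 members have 2 probe sets). The dimmest 30% of genes were left out of the tests, which left 15526.

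The tests used limma 3.58.1 (R 4.3.3), with age and state in the model and an intensity trend (2 residual and 7.76 prior degrees of freedom), and adjusted over all tested genes by Benjamini-Hochberg. With 1 array a group, a gene's own error is the disagreement between ages over the states. It was pulled by limma toward the spread of genes of similar signal, with more prior than residual degrees of freedom. The SEs, intervals and p-values rest on both and measure no spread between replicate arrays of a group. The script was checked on simulated data. Alternatives were other filters, probe set rules, models and normalizations, and each array left out. Members and lists were chosen with earlier results of these data known. All members are named, and of each other Wnt list at most 3 called genes a comparison. Genes like Frzb were ranked by root mean square difference, predicted genes skipped. Promoters came from RefSeq (GRCm38.p6). Figures used matplotlib 3.10.9.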

Additional observations from a re-analysis of the deposited data

Results flagged for a closer look

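With 1 array a group, a gene stands here when its difference had opposite signs in the old and the young pair. Whether the ages differ was not tested for any of them. For vehicle minus quiescent the largest contrast was that of Dkk3, at 1.34 log2 units in the old and -0.069 in the young pair. Dkk2 stood at 0.94 (old) and -0.14 (young), Wif1 at 0.14 (old) and -0.45 (young) and Notum at 0.27 (old) and -0.059 (young).

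For PRI-724 minus vehicle, Dkk2 stood at -0.78 (old) and 0.49 (young) and Sfrp2 at 0.29 (old) and -0.52 (young). Wif1 stood at -0.056 (old) and 0.77 (young), Apcdd1 at -0.051 (old) and 0.25 (young) and Notum at -0.28 (old) and 0.27 (young). For PRI-724 minus quiescent, Dkk3 stood at 0.93 (old) and -0.10 (young), Frzb at 0.32 (old) and -0.52 (young) and Sfrp4 at -0.14 (old) and 0.90 (young). Sfrp2 stood at 0.56 (old) and -0.17 (young), Sfrp1 at 0.053 (old) and -0.13 (young) and Notum at -0.0053 (old) and 0.21 (young). Of the genes named here, only Frzb and Dkk3 were above the background yardstick on all 6 arrays.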

How the results depend on the processing

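The call of Frzb with activation depended on the processing. The number of members called in vehicle minus quiescent was 1 in the main test and 0 without the intensity trend, without age in the model, with only the arrays of the states compared, after cyclic loess and after quantile normalization (Frzb adjusted p of 0.0511, 0.157, 0.0584, 0.0724 and 0.0693). It ranged from 0 to 1 over the arrays left out in turn. For PRI-724 minus vehicle it was 0, and 1 with only the arrays of those states, and 0 to 1 over the arrays left out. For old minus young it was 0, and 0 to 1 over the arrays left out. It was 0 in every setting for PRI-724 minus quiescent. When an array is left out, the other array of its state is assumed to vary like the rest. The sign of a gene that was not called turned in 34 of 530 comparisons of settings. Sfrp4 in vehicle minus quiescent became 0.082 (cyclic loess) and 0.049 (quantile), and after quantile normalization Dkk3 in PRI-724 minus vehicle became 0.0055 and Frzb in PRI-724 minus quiescent 0.023. The other turns came from leaving out an array, over which the lowest and highest values follow. For vehicle minus quiescent they were -0.38 and 0.20 for Sfrp4, -0.19 and 0.99 for Dkk2, -0.51 and 0.20 for Wif1 and -0.11 and 0.33 for Notum. For PRI-724 minus vehicle they were -0.50 and 0.27 for Sfrp2, -0.019 and 0.96 for Sfrp4, -0.74 and 0.44 for Dkk2, -0.67 and 0.23 for Dkk3, -0.038 and 0.24 for Apcdd1 and -0.23 and 0.21 for Notum. For PRI-724 minus quiescent they were -0.15 and 0.072 for Sfrp1, -0.19 and 0.58 for Sfrp2, -0.11 and 0.87 for Sfrp4, -0.71 and 0.51 for Frzb, -0.11 and 0.62 for Dkk2, -0.19 and 1.03 for Dkk3, -0.066 and 0.46 for Wif1 and -0.089 and 0.29 for Notum. For old minus young they were -0.072 and 0.45 for Sfrp4, -0.048 and 0.59 for Dkk2 and -0.38 and 0.034 for Wif1. The cause of these changes was not tested. With CTTTGAT alone as the motif, 0 members had a match. Keeping only genes above the olfactory range, a setting chosen after seeing the data, changed no call. Signal near background limits what can be seen for 7 of the members.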
